A study of Rattus norvegicus with 241 samples.

Results

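Cells that carried transcripts of both SORBS2 and PROCR were picked out of the sorted basal fraction of rat mammary glands and described rat by rat. The cells were chosen by 3 measured values, namely at least 2 unique molecular identifiers (UMIs, each standing for 1 captured RNA molecule) of SORBS2, at least 1 UMI of PROCR and fewer than 20 UMIs of COL3A1. SORBS2 encodes an adaptor protein of the actin cytoskeleton that is abundant in muscle, PROCR encodes the endothelial protein C receptor, and COL3A1 encodes a fibrillar collagen of fibroblasts. Cells that met all of these are called members, and the rule took 700 of 25862 basal-sorted cells (2.71%) in 15 libraries of 1 rat each, out of 160052 cells in 39 single-cell libraries of the whole series. The question put to them was whether they are basal epithelial cells, how they differ from the other cells of the same sort, and whether their number or their expression moved with treatment.

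The rats were virgin females of the inbred ACI and the outbred Sprague-Dawley (SD) strains, given vehicle or TGFBRi, the TGFβ receptor inhibitor galunisertib, at 75 mg/kg by gavage in 2 doses per day for 10 days. SD rats were 24 days old and ACI rats 35 days old at the first dose, and all glands were taken at day 0, when dosing ended. The basal fraction was the CD24+CD29high gate of CD31-CD45- cells from 3 vehicle and 3 TGFBRi-treated ACI rats and from 3 vehicle and 6 TGFBRi-treated SD rats, and whole glands of 3 vehicle and 6 TGFBRi-treated SD rats were sequenced unsorted with another chemistry. Strain and age changed together, so they cannot be told apart in a comparison of ACI with SD.

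Mammary ducts have an inner luminal layer and an outer basal layer. Basal cells are myoepithelial: they hold the basal keratins KRT5 and KRT14 and the transcription factor TP63, and they contract through the smooth muscle proteins ACTA2 and MYH11, which the smooth muscle of blood vessels uses as well. PROCR is known both as a marker of a small group of multipotent basal cells in the mouse gland and as a receptor on endothelium. Desmin (DES), the intermediate filament of muscle, is typical of vascular smooth muscle and pericytes, so keratins and DES together help to place a contractile cell.

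In units of 1000000 UMIs, basal libraries held 8.60 to 21.8 in ACI and 4.52 to 27.5 in SD. Members were deeper than the cells around them in every ACI library and in most SD libraries. Their median UMI count was 1.39 to 4.62 times that of the other cells in each ACI library and 0.924 to 1.80 times in each SD library. Any pair of ACI libraries shared at most 3 cell barcodes and any pair of SD libraries at most 7, which touched 0 ACI and 5 SD members. Per the study's methods, cells with a read of PTPRC or fewer than 2 reads of all keratins together had been removed from the sorted data, and every cell of the basal tables held at least 2 keratin UMIs and no PTPRC UMI.

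The members made up a small and variable share of each library. In ACI rats they were 402 of 9880 cells (4.07%), with 7.91%, 1.11% and 4.07% in the vehicle rats 7, 8 and 9 and 3.48%, 5.62% and 2.72% in the TGFBRi rats 12, 15 and 16. The arms overlapped, and the mean share was 3.94% ± 1.51 (s.d., n = 3) with TGFBRi and 4.36% ± 3.41 (s.d., n = 3) with vehicle (two-sided exact permutation test, p = 0.9, where 3 against 3 rats cannot go below 0.1). In SD rats they were 298 of 15982 cells (1.86%), with 2.09%, 3.27% and 0.317% in the vehicle rats 1, 2 and 3. The TGFBRi-treated SD rats 9 to 14 ran from 0.626% through a median of 2.14% to 7.64%, and the highest of them, SD13, came from a library of 563 cells. Their mean of 2.75% ± 2.62 (s.d., n = 6) stood beside 1.89% ± 1.49 (s.d., n = 3) with vehicle, and the difference was within the spread between rats (exact permutation test, p = 0.738, adjusted p = 0.812 over 11 comparisons of shares). Without SD13 the difference between the SD arms turned to -0.118 percentage points.

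**Figure D1:**
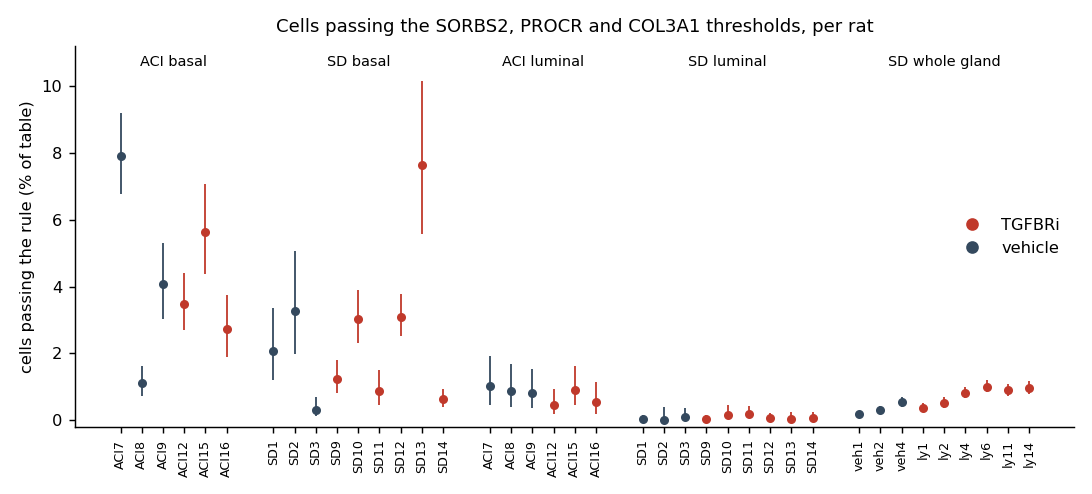
Share of cells that passed the SORBS2, PROCR and COL3A1 thresholds in each rat, as a percentage of the cells of its library, for the basal and luminal sorts of ACI and SD rats and the whole glands of SD rats. Each point is 1 rat with its 95% exact binomial interval, which covers counting error only, and vehicle and TGFBRi rats overlap in the basal sort of both strains.

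The same thresholds took few cells of the luminal sort, 51 of 6882 (0.741%) in ACI and 18 of 23784 (0.0757%) in SD. In whole glands they took 630 of 103524 cells (0.609%), 0.362% to 1.01% with TGFBRi and 0.177% to 0.534% with vehicle. The whole-gland means were 0.762% ± 0.262 (s.d., n = 6) and 0.343% ± 0.180 (s.d., n = 3), which overlapped and did not pass the exact permutation test (p = 0.0714, adjusted p = 0.262).

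How far the share rests on sequencing depth differed between the strains. When every cell was thinned to 3000 UMIs, 33 of 401 ACI members still passed (8.23%), and the ACI shares fell from 1.36% to 8.07% down to 0.189% to 0.565%. In SD, 134 of 290 members still passed (46.2%). The thinning left out 968 ACI and 1629 SD cells with fewer UMIs.

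The genes behind the rule are given as a description. The median member held 2 SORBS2 and 2 PROCR UMIs in ACI and 5 SORBS2 and 10 PROCR UMIs in SD. A SORBS2 UMI was present in 18.5% to 40.0% of the other cells of each ACI library and in 3.40% to 17.1% in SD. SORBS2 was not particular to the basal sort, since 27.4% to 57.8% of cells in ACI luminal libraries and 14.8% to 31.5% in SD luminal libraries held a UMI of it, outside the cells that met the rule. PROCR was in 14.0% to 28.7% of the other ACI basal cells and 17.02% to 34.8% of the other SD basal cells, and in at most 2.26% of luminal cells in any library. Just outside the SORBS2 threshold, 484 ACI and 238 SD cells had 1 UMI and met the other criteria, and just inside it 218 and 64 had 2. At the PROCR threshold 745 ACI and 138 SD cells had no UMI and 183 and 48 had 1. The COL3A1 ceiling turned away 1 ACI and 4 SD cells, and 17 SD members lay just under it with 10 to 19 UMIs.

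The members of the 2 strains differed in their intermediate filaments. In ACI, 400 of 402 members (99.5%) held at least 2 UMIs of KRT5 and KRT14 summed, and 7 (1.74%) held at least 2 UMIs of DES. In SD it was the other way round, with 93 of 298 (31.2%) for KRT5 and KRT14 and 257 (86.2%) for DES. Per rat the keratin-holding share was 97.1% to 100% in the 6 ACI rats and 11.6% to 83.3% in the 9 SD rats, with no overlap (difference of means 60.8 percentage points, exact permutation test over rats, p = 4.00e-04, the smallest that 5005 splits can give, adjusted p = 0.00440). This contrast was added after the values were seen. Among the other cells of the same libraries 87.9% to 98.03% in ACI and 55.8% to 97.2% in SD held KRT5 and KRT14 at this level, and the lowest of these was SD13. DES at 2 or more UMIs was in 0.0449% to 0.274% of the other ACI basal cells and 0.159% to 20.6% of the other SD basal cells, the highest again in SD13. Luminal cells, which should lack DES, held it at this level in 0% to 0.167% of cells in ACI and 0% to 0.875% in SD, at median depths of 5204 to 14434 UMIs in the SD luminal libraries and 7040.5 to 13783 UMIs in the SD members.

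**Figure D2:**
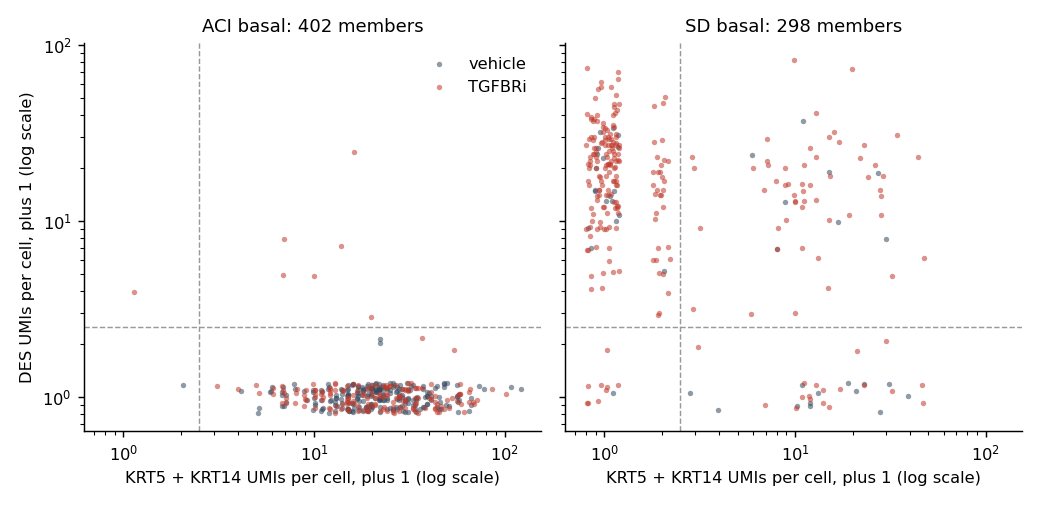
UMIs of KRT5 and KRT14 summed against UMIs of DES in each member, plus 1 and on log axes, for ACI and SD basal cells, with dashed lines between 1 and 2 UMIs and a small random shift to part overlapping points. ACI members lie along the keratin axis with 391 of 402 at 0 DES UMIs, and most SD members lie along the DES axis with 171 of 298 at 0 KRT5 and KRT14 UMIs.

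By these markers 195 SD members had DES without KRT5 or KRT14, 62 had both, 31 had keratin only and 10 had neither. Here a cell is said to be without a marker when it held fewer than 2 UMIs of it, with KRT5 and KRT14 summed. Keratin values in SD lay mostly at the ends of their range: 171 members had 0 UMIs of KRT5 and KRT14, 34 had 1, 6 had 2, 1 had 3, 0 had 4 and 86 had 5 or more, so that 40 lay at 1 or 2 UMIs, on either side of the threshold of 2. The DES members passed the keratin filter of the sorted tables narrowly. Of the 195 SD members with DES and without KRT5 or KRT14, 138 held exactly 2 UMIs of all keratins together and 32 held 3, where the SD members with KRT5 or KRT14 had a median of 120 and the other SD cells a median of 85. This was not particular to members. The 206 other SD cells of the same marker class had a median of 2, and 75.2% of them held 2 or 3. In 26.2% of the 195 members a KRT8 UMI was present, and in 16.4% a KRT5 UMI. The keratin UMIs of these members were mostly KRT17 (223 UMIs, in 64.1% of these cells) and KRT15 (151 UMIs). In the other SD cells these 2 keratins were at 4813 to 8672 CPM (counts per 1000000, here a gene's UMIs per 1000000 UMIs of the summed cells) and 2170.4 to 6310.1 CPM. In whole glands, where no keratin filter was applied, 234 of 295 cells of the same kind had no keratin UMI at all and 7.46% held 2 or more.

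The name of secretory basal cells was met in part by either strain. IGFBP7 and SPARCL1 are secreted proteins that the study, on these same samples, takes as examples for such cells. ACI members held the basal keratins, but IGFBP7 and SPARCL1 were at 28.1 to 299.8 and 0 to 137 CPM in members and 32.8 to 64.1 and 1.49 to 8.59 CPM in the other cells of their libraries, and both genes overlapped. In SD members IGFBP7 and SPARCL1 were at 3459 to 6206 and 783 to 2605 CPM against 90.3 to 694 and 7.94 to 228 CPM in other cells, without overlap, while most of these members lacked KRT5 and KRT14. The cells are therefore called SORBS2+PROCR+ members and not by that name. The counts of SORBS2 itself belong to the rule and are given as a description. SD members with DES alone had a median of 7 SORBS2 UMIs and those with keratin a median of 3. DES was held by 16.0% of SD cells with 1 SORBS2 UMI, 53.1% with 2 and 95.3% with 3 or more, and in ACI the keratin share was 98.1% to 99.5% at all 3 of these levels.

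**Figure D3:**
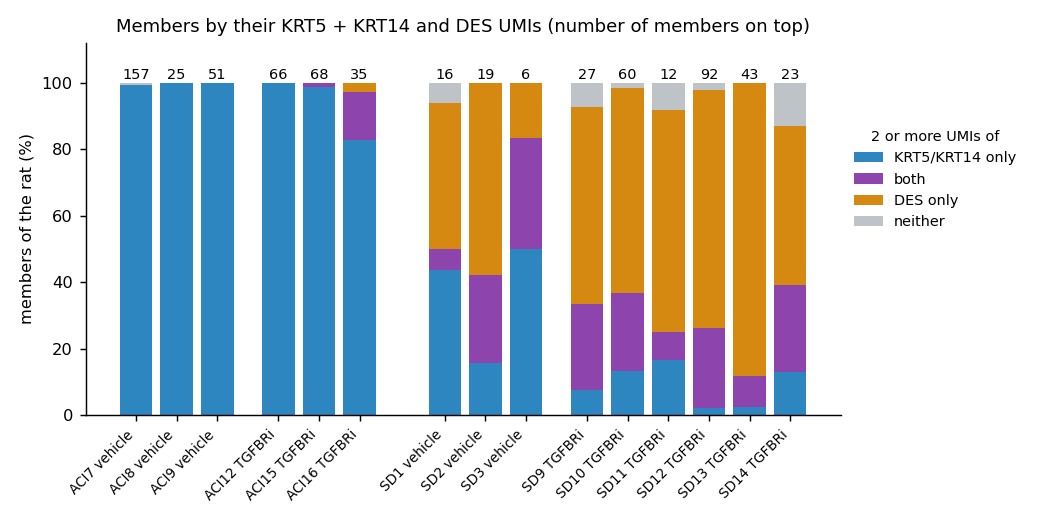
Make-up of the members in each basal library, as stacked percentages of members with at least 2 UMIs of KRT5 and KRT14 only, of both keratin and DES, of DES only, or of neither, with the number of members above each bar. Each of the 6 ACI rats is almost all keratin, and DES alone takes from 16.7% (SD3, 6 members) to 88.4% (SD13, 43 members) of the SD rats.

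Cells of vessel walls and doublets were looked for directly. PECAM1 was not among the genes analysed here. A UMI of the endothelial genes CDH5 or PLVAP was present in 17 SD members, 6 of them in SD14 (26.1% of its members), and in 1 ACI member, in rat ACI7. For the cells outside the rule CDH5 was counted alone, a narrower measure than CDH5 or PLVAP. Among the other basal cells CDH5 was in 0% to 0.109% per ACI library and 0% to 0.766% per SD library, and among luminal cells of SD in 0% to 0.0678%. The 7 ACI members with DES came from ACI16 (6) and ACI15 (1). The highest 6% of Scrublet doublet scores in each library held 13 of the 62 SD members with both keratin and DES (21.0%), 1 of the 195 with DES only (0.513%) and 3 of the 31 with keratin only. In ACI they held 44 members (10.9% of all ACI members, above the 6% of cells), each with keratin and without DES. SD members with both markers had a median of 16446 UMIs, against 9016 for DES only and 11212 for keratin only. The part of doublets in the members with both markers was not tested beyond these counts.

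The make-up of SD members differed between the treatment arms, short of the adjusted threshold. Keratin-holding cells were 50%, 42.1% and 83.3% of the members in vehicle rats 1, 2 and 3, and between 11.6% and 39.1% with a median of 29.7% in the 6 TGFBRi rats. Every TGFBRi rat was below every vehicle rat (means 28.6% ± 10.1 and 58.5% ± 21.9, s.d., n = 6 and n = 3), which gave an exact permutation p = 0.0238, the smallest these numbers allow, and an adjusted p = 0.131 that did not pass. The vehicle members were few, 16, 19 and 6. As shares of the whole library, keratin-holding members were 0.614% ± 0.373 (s.d., n = 6) with TGFBRi and 0.895% ± 0.571 (s.d., n = 3) with vehicle (exact permutation p = 0.381). Members with fewer than 2 keratin UMIs were 2.14% ± 2.38 (s.d., n = 6) and 0.997% ± 0.921 (s.d., n = 3), with p = 0.476 by the same exact test.

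Against the other cells of the same tables, SD members had higher levels of vascular smooth muscle genes and lower levels of basal epithelial genes. UMIs were summed per rat over members and over other cells and compared with edgeR's quasi-likelihood test with the rat as a block, calling genes at a Benjamini-Hochberg adjusted p of 0.1, in the 8 rats with at least 10 members (SD3, with 6, was left out). Of 14474 genes 2280 (15.8%) were higher and 3394 (23.4%) lower in members, 39.2% in all. SORBS2, PROCR and COL3A1 were not tested, and genes that go with them from cell to cell were bound to differ, so these tests describe the cells that the thresholds took. Levels are given in CPM of the summed cells and differences as log2 fold changes with their standard errors (SE).

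Among the genes named by a fixed rule of size, the largest rise was that of SNCG, which encodes γ-synuclein. Members held 1587, 1819, 2344, 2607, 1803, 3408, 3382 and 1095 CPM of it in SD1, SD2 and SD9 to SD14, in that order, and other cells 10.2, 22.7, 14.1, 25.8, 7.56, 62.6, 375 and 12.8 CPM. Every member sum was above every other sum, and the highest other sum was that of SD13 (log2 fold change 6.25 ± 0.40, SE, edgeR adjusted p = 3.21e-10). PLN, phospholamban, the regulator of the calcium pump of cardiac and smooth muscle, had its lowest, median and highest values at 110.3, 571 and 739 CPM in members and at 0.717, 5.11 and 72.6 CPM in other cells, with no overlap (log2 fold change 6.19 ± 0.40). FOXC2, a forkhead transcription factor of vessel and lymphatic development, was at 24.6 to 79.7 against 0 to 5.15 CPM (log2 fold change 6.09 ± 0.45). Receptors for vasoactive signals stood beside them. P2RX1, an ATP-gated channel of smooth muscle, was at 44.1 to 252 against 0.221 to 33.2 CPM (6.01 ± 0.46). AVPR1A, the vasopressin receptor of vessels, was at 116 to 588 against 0.552 to 40.9 CPM (5.89 ± 0.35). NPY1R, a neuropeptide Y receptor, was at 132 to 423 against 1.38 to 32.7 CPM (5.78 ± 0.32). All 3 receptors were higher in 8 of 8 rats, as the rule for naming required, and did not overlap between members and other cells.

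The remaining genes named by size of rise included muscle genes. XIRP1, an actin-binding repeat protein of striated muscle, was at 179 to 989.9 CPM in members and 2.04 to 64.3 CPM in other cells (log2 fold change 5.95 ± 0.34), and MYL1, a myosin light chain, at 68.9 to 431 and 0.320 to 45.3 CPM (5.81 ± 0.37). RERGL, a Ras-related gene, overlapped by 1 value, since the other cells of SD13 at 59.96 CPM exceeded the members of SD14 at 52.4 CPM (5.92 ± 0.42). MAP3K7CL, PCP4L1 and DGKB rose by 5.99, 5.74 and 5.73 on the log2 scale. In all 12 genes named here as higher the highest sum of other cells was that of SD13, where 22.7% of the library was DES-positive without KRT5 or KRT14. The part of those cells in the SD13 values was not tested.

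**Figure D4:**
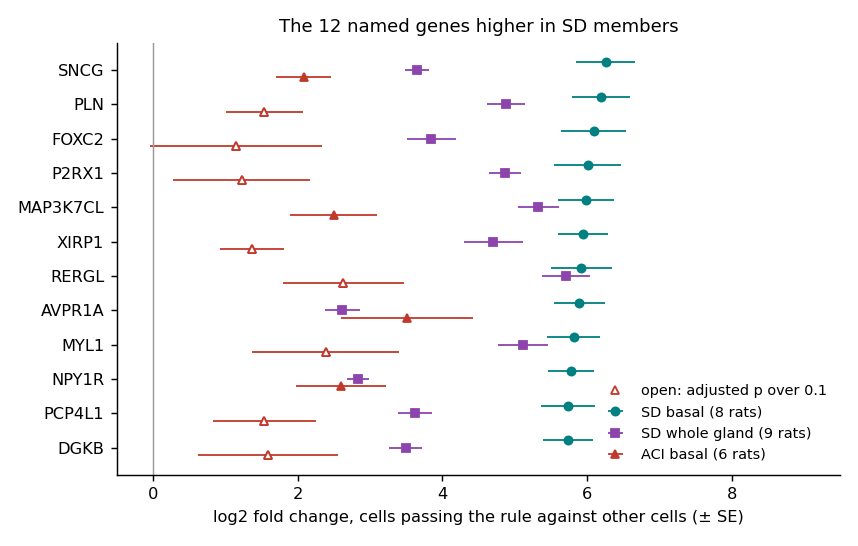
Log2 fold change ± SE of the 12 genes with the largest rise in SD members, in members against other cells of SD basal (8 rats), SD whole-gland (9 rats) and ACI basal (6 rats) libraries, with open markers where the edgeR adjusted p was over 0.1. All 12 are filled in SD basal and whole-gland cells, and 4 are filled in ACI. The same thresholds chose the cells in each comparison, so the comparisons are not independent.

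The genes with the largest falls had no UMI in SD members at all. LUM, a proteoglycan of fibroblast matrix, was absent from the members of all 8 rats and at 1.29 to 109 CPM in other cells, which made it at least 26.4-fold lower against a floor of 3 UMIs over all members. MMP3, a stromal metalloproteinase, was at least 25.4-fold lower on the same floor. The other 10 named genes were RT1-DA, LOXL4, PIK3CD, HTRA3, DPP4, AQP3, PCOLCE2, RSPO1, CPXM1 and GRHL3, at least 3.81-fold to 5.85-fold lower. Several are fibroblast genes, which the COL3A1 ceiling of the rule bears on: without that ceiling DPP4 and PCOLCE2 turned to log2 fold changes of 0.61 and 0.30 and were not called.

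Basal epithelial genes fell together, and luminal genes fell in part. All 15 listed basal genes were lower in SD members (median log2 fold change -2.03, beside -0.26 over all genes tested). KRT5 had its lowest, median and highest values at 125, 400.2 and 585 CPM in members and 1090.0, 1255 and 1512 CPM in other cells, with no overlap (log2 fold change -1.95 ± 0.20, adjusted p = 2.29e-07). KRT17 fell by 2.00 and TP63, the master transcription factor of basal cells, by 2.24 on the log2 scale, in 8 of 8 rats. The summed level of the list was 1594 to 8395 CPM in members and 14024 to 19397 CPM in other cells, and the 2 ranges did not overlap. Of 20 luminal genes 11 fell, among them the adhesion gene EPCAM (-2.23 ± 0.24) and KRT8, and KIT rose.

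Genes of vascular smooth muscle and pericytes formed the other pole. Of 31 tested, 29 were higher and 1 was lower in SD members (median log2 fold change 4.64), and their summed level was 5233 to 17723 CPM in members against 271 to 2242 CPM in other cells, without overlap. CRIP1, a small LIM protein with the most UMIs of the list, was at 3256, 4600.1 and 11010.3 CPM in members and 33.2, 59.3 and 1256 CPM in other cells, as lowest, median and highest (5.60 ± 0.33). MUSTN1 rose by 3.75, AOC3, the amine oxidase of vascular smooth muscle, by 4.60, and PDGFRB, the mural cell receptor, by 4.40 on the log2 scale. The pericyte marker RGS5 was low, at 4.37 to 133 CPM in members, with all but SD1 and SD9 at 11.03 CPM or less (2.28 ± 0.64). STEAP4 fell (-1.45 ± 0.19) and ADRA2A was not called.

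Contractile genes that myoepithelium and vessels share moved less, with 12 of 19 higher and 1 lower (median log2 fold change 0.92). DES was the exception, at 554, 1269 and 2087 CPM in members and 8.33, 22.98 and 203 CPM in other cells (5.51 ± 0.31). MYH11, smooth muscle myosin, was at 1279, 3859 and 6529 against 641, 1373 and 3756 CPM and higher in 7 of 8 rats (1.16 ± 0.18), and TAGLN rose by 0.91. ACTA2, smooth muscle actin, was at 2313, 2982 and 9950.2 and 1701, 2360.1 and 6075 CPM and did not pass (0.18 ± 0.17, edgeR adjusted p = 0.456). CNN1, calponin, was lower in 7 of 8 rats (-0.80 ± 0.17).

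Genes through which vessels sense signals rose as a group, 15 higher and 2 lower of 19 vasoactive receptors and cyclic GMP genes (median 3.99). GUCY1A1 and GUCY1B1, the subunits of the nitric oxide receptor guanylate cyclase, rose by 5.62 and 5.38, and RAMP1, a partner of the calcitonin gene-related peptide receptor, by 4.65 on the log2 scale. The oxytocin receptor OXTR, by which myoepithelium ejects milk, and NPR2 fell, but the call was lost without any 1 of 6 rats for OXTR and without SD12 or SD13 for NPR2. Of 24 endothelial genes 21 were higher and 1 lower (median 4.32). Without the 17 members that held CDH5 or PLVAP 2 were higher (ESAM and FLT4) and 11 lower, with a median of -2.27. CDH5 and PLVAP were among the 11 because this choice set them to 0 in members and not in other cells. Endothelial genes that go with these 2 were pushed lower by the same choice, so the 11 are no separate result. PLVAP itself was at 0 CPM in the members of SD2 and SD13 and at 2308 CPM in SD14.

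**Figure D5:**
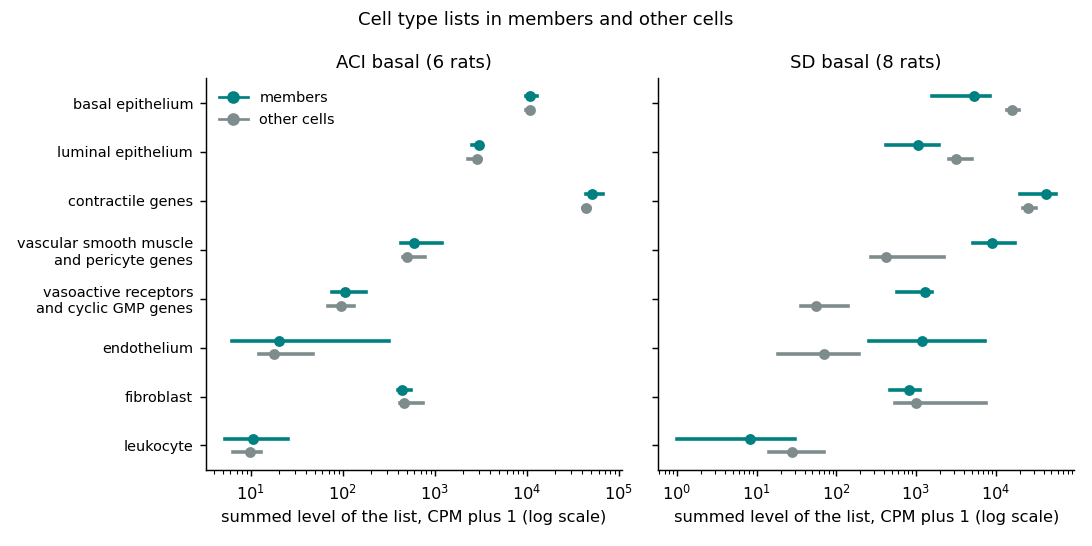
Summed level of each gene list in CPM plus 1, on a log axis, in members and in other cells of ACI (6 rats) and SD (8 rats) basal libraries. Dots are medians over rats and lines run from the lowest to the highest rat, and the vascular smooth muscle list of SD members stands apart from the other cells while the ACI ranges overlap.

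Of 10 genes the study mentions in its account of secretory basal cells, 8 were higher and 2 lower in SD members (median 4.54). They came from these same samples and are no independent evidence. The list is mixed, since the study ties S100A6 to other basal cells, TGFBR3 to basal cells as well, and NRG1, LRG1 and CDH5 to subgroups other than the SORBS2+ one. IGFBP7, a secreted binding protein of insulin-like growth factors, was at 3713, 3459, 4778, 5798, 5655, 5659, 6206 and 4681 CPM in the members of SD1, SD2 and SD9 to SD14 and at 90.3 to 694 CPM in other cells, without overlap (4.37 ± 0.22, adjusted p = 3.10e-11). SPARCL1, a secreted matrix glycoprotein, rose by 5.71, the calcium-binding S100A4 and S100A6 by 5.33 and 2.15, the hypoxia factor EPAS1 by 4.77 and ID3 by 2.65 on the log2 scale. LRG1 and CDH5 rose too but were at 0 CPM in the members of SD2 and SD13. NRG1, the neuregulin that basal cells send to luminal cells, fell in 8 of 8 rats (-2.35 ± 0.23), as did the TGFβ co-receptor TGFBR3 (-1.42 ± 0.16). Without the members that held CDH5 or PLVAP 6 of the 10 were higher and 4 lower, CDH5 among the latter by that choice.

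Matrix and signaling genes split by family. Basement membrane and matrix genes were higher in 15 and lower in 8 of 26 cases, with elastin (ELN, 5.05 ± 0.39), matrix Gla protein (MGP, 2.89 ± 0.21) and LAMB2, the laminin chain of vessels and muscle (2.60 ± 0.17), up, and LAMB3, the laminin chain of epithelial anchorage, and the collagen IV gene COL4A1 down (-2.03 ± 0.22 and -0.77 ± 0.13). Wnt genes were mostly lower, 21 of 30 (median -1.74), among them the secreted modulator SFRP1 (-2.06 ± 0.25) and the nuclear effector TCF7L2 (-1.44 ± 0.16), while TCF7L1 rose, and WNT5B rose in a call that was lost without SD1, SD9, SD10 or SD12. Notch genes were higher in 7 and lower in 4 of 14 cases, with the vascular receptor NOTCH3 (4.13 ± 0.46) and the targets HEY2 (5.31 ± 0.31) and NRARP (3.26 ± 0.21) up and the ligand JAG2 (-2.02 ± 0.27) and the target HES1 (-0.81 ± 0.13) down. In the IGF axis 5 rose, IGFBP4 (2.49 ± 0.18) and IGF2 (4.74 ± 0.54) among them, and 3 of 13 fell, with IGFBP2 at 163 to 1143 against 2118 to 3519 CPM.

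The pathway that the drug acts on was divided. TGFβ ligands, receptors and SMADs were higher in 9 and lower in 11 of 30 cases, or lower in 7 with library size only, with a list median of -0.17, or -0.10 under DESeq2 scaling, beside -0.26 and 0.04 over all genes. The ligands TGFB2 (2.05 ± 0.24) and TGFB3 (3.41 ± 0.37) and the latent binding protein LTBP1 (2.23 ± 0.24) were higher in members, and the feedback repressor SKIL (-0.74 ± 0.16) was lower. Known TGFβ targets rose in 4 and fell in 10 of 21 cases, with THBS1 (-1.81 ± 0.17) and PMEPA1 (-1.86 ± 0.20) lower. Genes linked to mammary stem and progenitor cells gave 6 higher, ID1 (3.59 ± 0.25), ID2 (3.58 ± 0.29) and ITGB1 among them, and 8 lower of 19, with ITGA6 (-1.71 ± 0.18) and SOX9 (-2.19 ± 0.27). Cell cycle genes were lower in 7 of 17 cases and higher in 0, and were lower in 3 with library size only, 3 without SD11, 3 without SD12 and 4 without SD9. MKI67 was at 0 CPM in the members of SD1 and SD11 and at 146 CPM in those of SD10, above every sum of other cells.

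Markers of further cell types moved in both directions in SD members. Of 17 fibroblast genes 11 fell, DCN by 6.12 on the log2 scale, and LOX rose (3.92 ± 0.43). Of 14 Schwann and perineurial genes 7 fell and PMP22 rose. Adipocyte genes rose in 3 of 6 cases, with the lipase LPL at 104.8 to 379.7 against 3.79 to 36.2 CPM. Leukocyte genes were higher in 0 and lower in 2 of 8 cases, mesothelial genes lower in 1 of 3, and milk protein genes changed in 0 of 6. Immediate early and heat shock genes rose in 7 and fell in 4 of 20 cases, with HSPB1 (2.42 ± 0.23) and JUNB (1.68 ± 0.23) higher. The 7 became 4 without SD9 and 4 without SD10, and the 4 became 2 under DESeq2, with library size only, or without SD1, SD11, SD13 or SD14.

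The SD contrast was also taken apart by keratin. In the 6 rats with at least 10 members below 2 keratin UMIs, 29 of 31 vascular smooth muscle and pericyte genes were higher than in other cells, and in the 2 rats with at least 10 members above it, SD10 and SD12, 23 of 31 were. The keratin-holding members of these 2 rats had 11 of 15 basal genes lower than other cells. In these 2 rats 14 of 22 and 22 of 24 keratin-holding members also held DES. Of those with both markers, 0 of 14 in SD10 and 10 of 22 in SD12 were among the highest 6% of Scrublet scores. The part of doublets in the calls of these 2 rats was not tested. Scaling shifted the whole contrast: the median log2 fold change of all genes was -0.26 with TMM, 0.04 with DESeq2 and -0.08 with library size only, and the last of these called 2850 genes higher and 2451 lower.

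Few genes set ACI members apart from the basal cells around them. Over 6 rats 141 of 14091 genes (1.00%) were higher and 166 (1.18%) lower, 2.18% in all, or 160 of 272 calls higher with library size only, and without the rat as a block 1 gene was called by edgeR. ACI members were deeper than the other cells, and against other cells of the members' depth 79 genes were higher and 170 lower, of 249 calls in all, and these held 34.9% of the 307 genes called against all other cells. Without ACI7 159 were called. PDE2A, a cyclic nucleotide phosphodiesterase, was at 9.29, 15.8, 8.43, 6.65, 5.19 and 6.61 CPM in the members of rats 7, 8, 9, 12, 15 and 16 and at 2.09 to 3.74 CPM in other cells, without overlap (log2 fold change 1.36 ± 0.31, edgeR adjusted p = 0.00378). LTBP1, which holds latent TGFβ in the matrix, was at 64.3, 47.5, 33.7, 30.3, 27.7 and 28.7 CPM against 19.9 to 26.7 CPM, again apart (0.70 ± 0.12, edgeR adjusted p = 4.78e-05, with no adjusted p given by DESeq2). MRGPRF (1.13 ± 0.29), the TGFβ family ligand GDF11 (0.57 ± 0.18) and DLK1, a Notch ligand homolog (0.55 ± 0.12), completed the genes named as higher. Each rose in 6 of 6 rats, as the rule for naming required. Calls rested on single rats: without ACI7 LTBP1 and MRGPRF had adjusted p = 0.407 and 0.212 by edgeR, and GDF11 was not called without any 1 of 5 rats. With other cells of the members' depth in place of all other cells DLK1 turned to -0.13.

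The genes named as lower in ACI members mark cells other than epithelium. LUM had no UMI in members and was at least 5.86-fold lower, on the floor of 3 UMIs over all members. COL1A1 and DCN, of fibroblasts, were at 0 to 6.61 and 0 to 2.31 CPM in members against 0.995 to 188 and 0.373 to 48.6 CPM (-5.24 ± 0.24 and -4.77 ± 0.37), with the highest values of other cells in ACI15. The COL3A1 ceiling of the rule bears on such fibroblast genes, and the 1 ACI cell that it turned away was in ACI15. SCN7A, a sodium channel of nerve, was lower by 3.21 on the log2 scale.

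Basal keratins of ACI members were at the level of the other cells and some contractile genes were raised. List counts of ACI members are against all other cells and were not taken against cells of the members' depth. Of 15 basal genes 1 was higher, in a call lost without ACI9, ACI12 or ACI15 (KRT15, 0.26 ± 0.07) and 1 lower (SFN), and their summed level of 9683 to 12710.5 CPM overlapped the 9743 to 11661 CPM of other cells. KRT5 was at 749 to 1563 CPM in members and 774 to 1339.9 CPM in other cells (-0.03 ± 0.06, edgeR adjusted p = 0.973). Of 19 contractile genes 7 were higher and 0 lower, or 12 and 0 both under DESeq2 and with library size only. ACTG2, smooth muscle γ-actin, was at 2364 to 3274 against 1723 to 2086 CPM without overlap (0.40 ± 0.06), and MYH11, MYL9 and CNN1 rose by 0.31, 0.24 and 0.27 on the log2 scale, each in 6 of 6 rats, of which the call of MYH11 was lost without ACI12 and that of MYL9 without ACI7, ACI12 or ACI15. Matrix genes were higher in 6 and lower in 2 of 26 cases, COL4A1 (0.21 ± 0.06) among them, and higher in 2 without ACI7 or ACI12 and in 3 without ACI9 or ACI15. Cell cycle genes were lower in 5 of 17, or 3 without ACI7, with MKI67 lower in 6 of 6 rats (-0.61 ± 0.10). In the IGF axis 3 of 13 genes were higher, IGFBP3 (0.44 ± 0.10) among them, and 2 were lower, IGFBP5 (-0.46 ± 0.07) and IGF1.

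Single rats carried much of the rest of the ACI list counts. Vascular smooth muscle and pericyte genes were higher in 9 of 26 cases (median 0.49) and in 1 of 25 without ACI16, the rat with 6 DES-holding members. CRIP1 was at 304 CPM in the members of ACI16 and at 0 to 21.3 CPM in the others. Of the same 10 genes 4 were higher and 1 lower in ACI, and 2 and 2 without ACI16. IGFBP7 was at 299.8 CPM in the members of ACI16 and 28.1 to 99.9 CPM in the other rats (0.62 ± 0.13, and 0.19 with adjusted p = 0.482 without ACI16). SPARCL1 was at 137 CPM there and 0 to 14.4 CPM elsewhere. Endothelial genes were higher in 9 and lower in 1 (CCL21) of 21 cases, higher in 1 and lower in 0 of 11 without ACI7 and higher in 1 and lower in 1 of 18 without the 1 member that held CDH5 or PLVAP. Milk protein genes were higher in 3 of 4 cases, LALBA with 116.6 CPM in ACI9 and 20.2 CPM or less in the members of each other rat, and its call was lost without ACI9.

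The remaining lists gave few calls in ACI members. Wnt genes were called in 0 of 28 cases and immediate early genes in 0 of 20. Notch genes were lower in 1 of 14 (DLL1), TGFβ ligands, receptors and SMADs higher in 1 (LTBP1) and lower in 2 of 30 (SKIL and SKI), and TGFβ targets higher in 1 and lower in 2 of 20, or higher in 3 both under DESeq2 and with library size only. Stem and progenitor genes were higher in 2 of 18 (ID1 and KIT), vasoactive genes in 2 of 15, and luminal genes higher in 2 and lower in 2 of 19. Fibroblast genes were lower in 5 of 15 and Schwann genes in 2 of 14. Adipocyte, mesothelial and leukocyte genes were called in 0 of 7, 0 of 1 and 0 of 4 cases. Many of the ACI list calls were not made by DESeq2. It gave no adjusted p for 11748 ACI genes, and 0 genes were called in the luminal, vascular, endothelial, Schwann, stem and progenitor, TGFβ ligand and receptor, IGF, vasoactive, cell cycle and milk protein lists and among the 10 genes of the study, and 0 fibroblast and 0 matrix genes were lower.

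The genes that set SD members apart were rare in ACI members. Of the 12 genes with the largest rise in SD, 4 were called higher in ACI: SNCG (2.08, 86 UMIs in all ACI members), MAP3K7CL (2.497, 28 UMIs), NPY1R (2.60, 29 UMIs) and AVPR1A (3.51, 15 UMIs). Without ACI16 their log2 fold changes were 0.22 (adjusted p = 0.963), 0.98 (adjusted p = 0.760), 0.55 (adjusted p = 0.922) and -3.37 (adjusted p = 0.732), in that order, by edgeR. The SD members held 9389 UMIs of SNCG and 1668 of AVPR1A. Of the genes tested in both strains 85 were higher in both, which was 4.10% of the 2073 SD and 60.3% of the 141 ACI genes called higher among 13680 tested in both. Lower in both were 95, which was 2.81% of 3377 in SD and 57.2% of 166 in ACI.

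Cells that passed the same thresholds in whole glands served as a comparison without the sort and without the keratin filter. The 9 libraries shared 88 to 284 cell barcodes per pair, which touched 11.6% of these cells. They were 630 cells from 9 other SD rats, of which 302 held DES, 35 held KRT5 or KRT14 and 303 held CDH5 or PLVAP. Against the other cells of their libraries 2493 of 18175 genes (13.7%) were higher and 4161 (22.9%) lower, 36.6% in all, or 3108 and 3293 under DESeq2. RERGL (5.71 ± 0.33), MAP3K7CL (5.32 ± 0.28), MYL1 (5.11 ± 0.34), PGAM2, a muscle phosphoglycerate mutase (5.02 ± 0.34), and NRIP2 (4.90 ± 0.31) were named by the rule of size. They rose in 9 of 9 rats, as that rule required. All 12 genes named as higher in the sorted SD members were called higher here, PLN at 4.97 to 98.2 against 0.843 to 4.09 CPM without overlap. The same thresholds chose the cells, so genes that go with SORBS2 and PROCR from cell to cell were bound to differ here as well. The recurrence of these 12 is no independent evidence. SFRP4, a secreted Wnt modulator, had no UMI in these cells and was at least 76.8-fold lower. The other 4 genes named as lower, RGD1563231, AABR07034729.1, AABR07051708.1 and AABR07051551.1, which carry only locus names, had no UMI either and were at least 53.3-fold to 184-fold lower.

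The same lists were counted in these cells. Higher were 28 of 31 vascular smooth muscle and pericyte genes, 18 of 19 contractile genes, 22 of 24 endothelial genes and 13 of 15 Notch genes. Lower were 11 of 15 basal, 17 of 17 fibroblast and 11 of 11 leukocyte genes, against a background of all cell types of the gland. The COL3A1 ceiling turned away 126 whole-gland cells that met the other thresholds and left them among the cells compared against. Fibroblast genes that go with COL3A1 were pushed lower by the rule, so their fall is no separate result. Without the 303 cells that held CDH5 or PLVAP 1469 genes were higher and 3456 lower, and these calls held 58.97% of the 6654 made with them. Of the lists, 26 vascular, 19 contractile, 7 Notch and 1 endothelial gene were then higher and 21 endothelial and 1 basal gene lower. CDH5 and PLVAP were among the 21 by that choice. Cells with CDH5 or PLVAP stayed among the other cells, so endothelial genes that go with these 2 were pushed lower by it as well. The 21 are therefore no separate result. With no cell left out, CDH5 was at 180.2 to 435 CPM in the cells that passed the thresholds and 28.8 to 84.5 CPM in the others. Of the genes tested in both, 14416 in number, 1253 were higher in both the sorted and the whole-gland cells, 54.96% of 2280 in the first and 54.5% of 2301 in the second. Lower in both were 1395, 41.1% of 3393 and 40.2% of 3468. Of the 35 keratin-holding cells, only those of TGFBRi rats 6 and 11, 10 in each, were enough for a fit. In these 2 rats 13 basal genes were higher and 5 vascular genes lower than in the rest of the gland. KRT5 and KRT14 chose these cells and are in the basal list, so higher basal genes were bound to follow from the choice.

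Treatment was then compared among the SD members themselves, in 6 TGFBRi and 3 vehicle rats. Of 9838 genes 1 (0.0102%) was higher and 10 (0.102%) were lower with TGFBRi by edgeR, 0.112% in all, against 151 higher and 134 lower by DESeq2 and 27 and 87 with filterByExpr, and 1502 had an unadjusted p below 0.05. HSPB8, a small heat shock protein of muscle, was at 274, 243, 162, 319.9, 338 and 165 CPM in TGFBRi rats 9 to 14 and at 97.8, 56.9 and 119 CPM in vehicle rats 1 to 3 (log2 fold change 1.91 ± 0.37, edgeR adjusted p = 0.0963). HK2, the hexokinase that starts glycolysis, was at 287 to 555 CPM against 1321, 1723 and 1547 CPM (-1.42 ± 0.25). COL14A1, a collagen of fibril surfaces, was at 7.92 to 98.6 CPM against 279.9 to 356 CPM (-2.75 ± 0.53), and PPIAL4D at 10.2 to 38.0 against 116 to 162 CPM (-2.14 ± 0.40). These 4 did not overlap between the arms, which the rule for naming required. The other 7 called genes, all lower, were FGFRL1, LRP6, SPRED1, MYH9L1, AABR07011951.1, AABR07033829.1 and AABR07062344.4, chosen for mention after their values were seen.

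All of these calls depended on single rats. Leaving out any 1 of the vehicle rats, or TGFBRi rat 11 or 12, left no gene called by edgeR, and over all 9 left-out rats the count ran from 0 to 180. The vehicle side rested on 41 cells, and the keratin share of the members was lower with TGFBRi, short of the adjusted threshold (exact permutation test, adjusted p = 0.131). Its part in these genes was not tested. None of the 22 gene lists had more than 1 gene called by edgeR, LRP6 in the Wnt list. Of 19 TGFβ target genes 6 were lower and 0 higher under DESeq2, and 5 and 0 with library size only. Of 13 basal genes 3 were lower under DESeq2 and 1 with library size only. KRT14 was at 8.27 to 42.9 CPM with TGFBRi and 93.4 to 198 CPM with vehicle (-2.04 ± 0.43, edgeR adjusted p = 0.102), and DES at 554 to 2087 and 436 to 1089 CPM (1.14 ± 0.38, adjusted p = 0.193).

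Whether treatment acted differently on members than on the other cells of the same SD rats was tested as an interaction. Of 14582 genes 3 (0.0206%) had a more positive and 4 (0.0274%) a more negative log2 fold change with TGFBRi in members than in other cells, 0.0480% in all, against 7 and 19 by DESeq2 and 5 and 3 with library size only. The chemokine gene CXCL1 was at 3407, 1389, 1616, 1233, 1277 and 4116 CPM in the members of TGFBRi rats 9 to 14 and 849, 297 and 476 CPM in those of vehicle rats 1 to 3, without overlap, while the other cells had means of 624 and 628 CPM (difference of log2 fold changes 2.22 ± 0.39, edgeR adjusted p = 0.0525). CCL2, the monocyte chemoattractant, was at 187 to 1373 CPM in the members of TGFBRi rats and 0 to 359 CPM in those of vehicle rats, with means of 196 and 331 CPM in the other cells (2.78 ± 0.57, adjusted p = 0.0905). PLPP3, a lipid phosphatase of vessels, was at 208 to 813 CPM in the members of TGFBRi rats and 223 to 338 CPM in those of vehicle rats, with means in the other cells of 73.3 and 196 CPM (1.75 ± 0.33). In the opposite sense IGFBP2 was at 163 to 878 CPM in the members of TGFBRi rats and 1045 to 1428 CPM in those of vehicle rats, with means of 3152 and 2062 CPM in the other cells (-1.83 ± 0.37), and KRT8, FST and PDK4 were also called as lower, the last 2 on 58 UMIs each and all 3 chosen for mention after their values were seen. Without the rat as a block, or without vehicle replicate 3, no gene was called by edgeR, and 591 genes had an unadjusted p below 0.05 without the block.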

How the data were processed

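Single-cell RNA of basal-sorted, luminal-sorted and whole mammary glands was measured on the 10x platform. The deposited tables hold whole UMI counts per gene and cell, not normalised, which the authors made with Cell Ranger (4.0.0 and 7.0.0 per the labels) and Seurat (4.0.0 and 4.1.1) on the rat build rn6, and from which they removed low-quality cells and, in the sorted data, cells with PTPRC or with fewer than 2 keratin reads. Bulk RNA tables were not used. All symbols were matched ignoring case. The members, the gene lists and the contrasts were chosen with earlier results of these data known.

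UMIs were summed per rat over members and over the other cells. Sums of at least 10 members were compared with edgeR 4.0.16 (R 4.3.3; quasi-likelihood, TMM, rat as a block, at least 10 counts over all sums, adjusted p of 0.1). TGFBRi and vehicle rats with at least 5 members were compared without the block, and the difference of treatment effects with it. Both sums of a rat come from 1 library, which is the pairing behind the block. Shares of cells were compared with exact permutation tests over rats (scipy 1.17.1) and given with 95% exact binomial intervals, which cover counting error only. In SD the text names the 12 called genes with the largest log2 fold change in each direction among those moving 1 way in every rat with at least 20 UMIs per rat in the higher sum, and in the other comparisons the 5 in each direction. A gene that this rule names in ACI is not reported here. Scrublet scores came from scanpy 1.11.5 and no cell was removed for them. Alternatives were DESeq2 1.42.0, library-size scaling, filterByExpr, no filter, no block, stricter or looser thresholds, no COL3A1 ceiling, other cells of the members' depth, members without top doublet scores, without endothelial markers or with keratin, and each rat left out. Each fit was run on simulated counts with 200 changed genes, of which the interaction fit found the smallest share.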

Additional observations from a re-analysis of the deposited data

Results flagged for a closer look

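The share of members in rat SD13, 7.64% of 563 cells, stood apart from the other 5 TGFBRi-treated SD rats, of which the nearest was at 3.10% (the gap was 0.646 of the range of the 6 rats, past the 95% limit of Dixon's test). This was 1 of 32 such tests, and chance alone passes about 1 in 20. The SD13 library also had the highest share of DES-positive cells without KRT5 or KRT14, 22.7%, and the part of these cells in the share was not tested.

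For 7 genes the treatment effect in SD members differed from that in the other cells of the same rats by edgeR's interaction test. The difference of log2 fold changes was 2.78 for CCL2, 2.22 for CXCL1 and 1.75 for PLPP3, and it was -1.83 for IGFBP2, -1.67 for KRT8, -2.76 for FST and -2.68 for PDK4. Their adjusted p ran from 0.0525 for CXCL1 to 0.0905 for CCL2 and FST. The share of keratin-holding members was lower in the TGFBRi arm, short of the adjusted threshold (exact permutation test, adjusted p = 0.131), and its part in these genes was not tested. None of the 23 genes named in SD and also tested in ACI was called in opposite directions in ACI and SD members, but most were not called in ACI at all. AQP3 and RSPO1, lower in SD members, had log2 fold changes of 1.60 and 0.21 in ACI members, neither of them called.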

How the results depend on the processing

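The SD difference in shares ran from -0.118 to 1.55 percentage points with 1 rat left out, and turned without TGFBRi rat 13. The ACI difference turned to 1.42 (exact permutation p = 0.8) with 1 SORBS2 UMI as threshold and ran from -2.05 to 1.35 with 1 rat left out (0.190 without TGFBRi rat 16). The arm difference in keratin-holding SD members was -27.5 points (exact permutation p = 0.167) among members of 5000 to 15000 UMIs and ran from -38.03 to -17.4 with 1 rat left out.

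Calls across genes are given as percentages of the genes tested, with their number or split in parentheses. In SD members 39.2% were called (5674), 11.6% with keratin-holding members (1529, in 2 rats) and 33.6% to 38.9% with 1 rat left out. In ACI 2.18% were called (141 higher, 166 lower), 0.724% by DESeq2 (56 higher, 46 lower, with no adjusted p for 11748 genes), 1.63% with filterByExpr (186), 0.00710% without the replicate block (1 gene), 0.471% with stricter thresholds, which left 3 of 6 rats (64) and 1.17% to 2.29% with 1 rat left out. In whole glands 36.6% were called (6654), 5.41% with keratin-holding cells (890, in 2 rats) and 32.4% to 39.03% with 1 rat left out. Between the arms 0.112% were called (11), 2.90% by DESeq2 (151 higher, 134 lower), 1.13% without TMM (111), 3.09% with filterByExpr (27 higher, 87 lower), 1.54% with keratin-holding members (121, in 8 rats), 0% to 1.86% with 1 rat left out, and 0 by edgeR in rats with at least 10 members (1000 at an unadjusted p below 0.05) or with stricter thresholds in 8 of 9 rats (666). For the difference of treatment effects 0.0480% were called (7), 0.178% by DESeq2 (26), 0.223% with keratin-holding members (32), 0% to 0.254% with 1 rat left out, and 0 by edgeR with filterByExpr (673), without the replicate block (591), in rats with at least 10 members (611) or with stricter thresholds in 8 of 9 rats (556). Some genes named by size turned in their own comparison. In SD these were DPP4 (0.61) and PCOLCE2 (0.30) without the COL3A1 ceiling. DLK1 (-0.13) turned against ACI cells of the members' depth and NRIP2 (-7.16) among keratin-holding whole-gland cells. Outside its own comparison AVPR1A, named in SD, turned in ACI without ACI16, as given above. Without the replicate block 4541 SD and 5683 whole-gland genes were called. The cause of these changes was not tested. The vehicle side of the arm comparisons held 41 cells.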

Other observations

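Cells that met the same thresholds in the luminal sort were few but not absent, 51 of 6882 in ACI and 18 of 23784 in SD, and they entered no comparison of expression.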
